A study of Mus musculus with 21 samples.

Results

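Genes that take up, store and export iron or break down heme are described here in the hearts of mice given doxorubicin (DOX) with and without a 4T1 breast tumor. They were picked by gene symbol: *Hmox1*, *Fth1*, *Ftl1*, *Tfrc*, *Slc40a1*, *Slc11a2*, *Ireb2*, *Abcb8*, *Hamp* and *Slc39a14*, which are 10 of the 56691 genes in the table. The study asked how DOX alters cardiac expression in tumor-bearing and in non-tumor-bearing mice. Its 21 libraries fell into 4 groups: Control (no tumor, no DOX, n = 5), DOX (no tumor, DOX, n = 5), Tb (4T1 tumor, no DOX, n = 6) and Tb-DOX (4T1 tumor and DOX, n = 5). The paper describes the groups without DOX as given normal saline. It gives n = 6 mice in each group for its heart and serum measurements. DOX was injected intraperitoneally at 5 mg/kg in 3 weekly doses, and the tumors were raised by injecting 4T1 cells, a mouse mammary carcinoma line, under the skin, so they stand for a transplanted tumor of short duration. Sex, strain and age are not given in the sources used here, nor is it stated that each library came from a different mouse, so p-values measure the spread between libraries, which may be technical in part.

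The labels name the 4T-1 cell line as the source of every library, whereas the study's methods describe heart tissue. Cardiomyocyte markers summed to between 14510 and 25370 FPKM in all groups, led by the myoglobin gene *Mb*, while carcinoma keratins and adhesion genes summed to at most 2.57. Libraries held between 13521200 and 18601445 counted reads. Some stood apart: the Tb replicate 5 library had the lowest quality weight of all, 0.125, and the DOX replicate 4 library carried T cell and thymocyte markers at a summed 76.6 FPKM, against at most 12.4 elsewhere. Levels below are FPKM (fragments scaled to exon length and library size) rescaled by trimmed mean of M-values (TMM) factors, so they can be compared between genes as well as between libraries. Fold changes come from edgeR fitted to the read counts of the 13990 genes that averaged 0.5 FPKM or more, with Benjamini-Hochberg adjustment over them, and a gene is said to have risen or fallen only at an adjusted p under 0.05. All 10 genes passed that filter.

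Iron bound to transferrin enters cells through the transferrin receptor, encoded by *Tfrc*, while *Slc39a14* and *Slc11a2* encode transporters of free divalent metal. Surplus iron is held in ferritin, a shell of heavy (*Fth1*) and light (*Ftl1*) chains, and leaves the cell through ferroportin, encoded by *Slc40a1*, the export channel that the peptide hormone hepcidin (*Hamp*) removes from the membrane. Heme is opened by heme oxygenase 1 (*Hmox1*), which releases its iron, and *Abcb8* encodes a transporter of the mitochondrial inner membrane linked to iron leaving that organelle. DOX binds iron, and iron handling in heart muscle is a much studied side of its toxicity.

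Several of these transcripts carry iron-responsive elements, short hairpins to which iron regulatory proteins, among them the *Ireb2* product, bind when iron is scarce. A hairpin in the 5′ untranslated region blocks translation when bound, and hairpins in the 3′ untranslated region protect the transcript from decay, so the position tells which layer of expression the RNA levels below can show. The hairpins were searched on the sense strand of GENCODE M21 transcripts (GRCm38) as the loop letters CAGTGN (last base not G) closed by 5 base pairs, with a C on the 5′ side before them and at least 4 pairs below it. Such a hairpin was present in 4 of the 10 genes and in 13 of 21901 protein-coding genes searched, 0.0594%. They are printed 5′ to 3′ with the loop in capitals, to show how alike the loops are in genes whose RNA levels differed in direction:
Fth1, 5′ untranslated region, chr19:9982733-9982759, plus strand: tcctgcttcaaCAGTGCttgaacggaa
Ftl1, 5′ untranslated region, chr7:45459780-45459806, minus strand: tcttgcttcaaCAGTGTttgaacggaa
Slc40a1, 5′ untranslated region, chr1:45925466-45925492, minus strand: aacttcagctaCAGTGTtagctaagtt
Tfrc, 3′ untranslated region, chr16:32631220-32631246, plus strand: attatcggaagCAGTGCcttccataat
Tfrc, 3′ untranslated region, chr16:32631599-32631625, plus strand: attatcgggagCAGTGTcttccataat
Tfrc, 3′ untranslated region, chr16:32631664-32631690, plus strand: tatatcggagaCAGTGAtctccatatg
Tfrc, 3′ untranslated region, chr16:32631711-32631737, plus strand: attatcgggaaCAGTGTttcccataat
The 4 hairpins of *Tfrc* all lie in its 3′ untranslated region, and the 3 other genes each have 1 at the 5′ end. No hairpin of this strict form was found in the annotated untranslated regions of *Slc11a2*, *Ireb2*, *Hmox1*, *Abcb8*, *Hamp* or *Slc39a14*, and a stem with a further unpaired base would be missed by the search. Protein binding to these elements was not measured.

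In hearts without tumor, DOX lowered the RNA of the iron importer *Tfrc* and of the iron exporter *Slc40a1* and raised that of the ferritin heavy chain, *Fth1*. These 3 of the 10 genes passed the test, where 36.2% of all genes did, so the count itself does not set the group apart. Leaving out any library gave 3 or 4. Libraries of both groups were fully separated for 2 of the 10, *Slc40a1* and *Tfrc*, against 25.3% of all genes. In tumor-bearing hearts, 0 of the 10 passed between Tb-DOX and Tb, where 4.72% of all genes did. There, 1 of the 10 had an unadjusted p under 0.05 in edgeR, beside 20.4% of all genes. DESeq2 called 0 of the 10, and voom quality weights called 2, *Fth1* (higher) and *Slc40a1* (lower), beside 18.0% of all genes. Libraries separated fully for 0 of the 10 beside 4.96% of all genes.

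**Figure D1:**
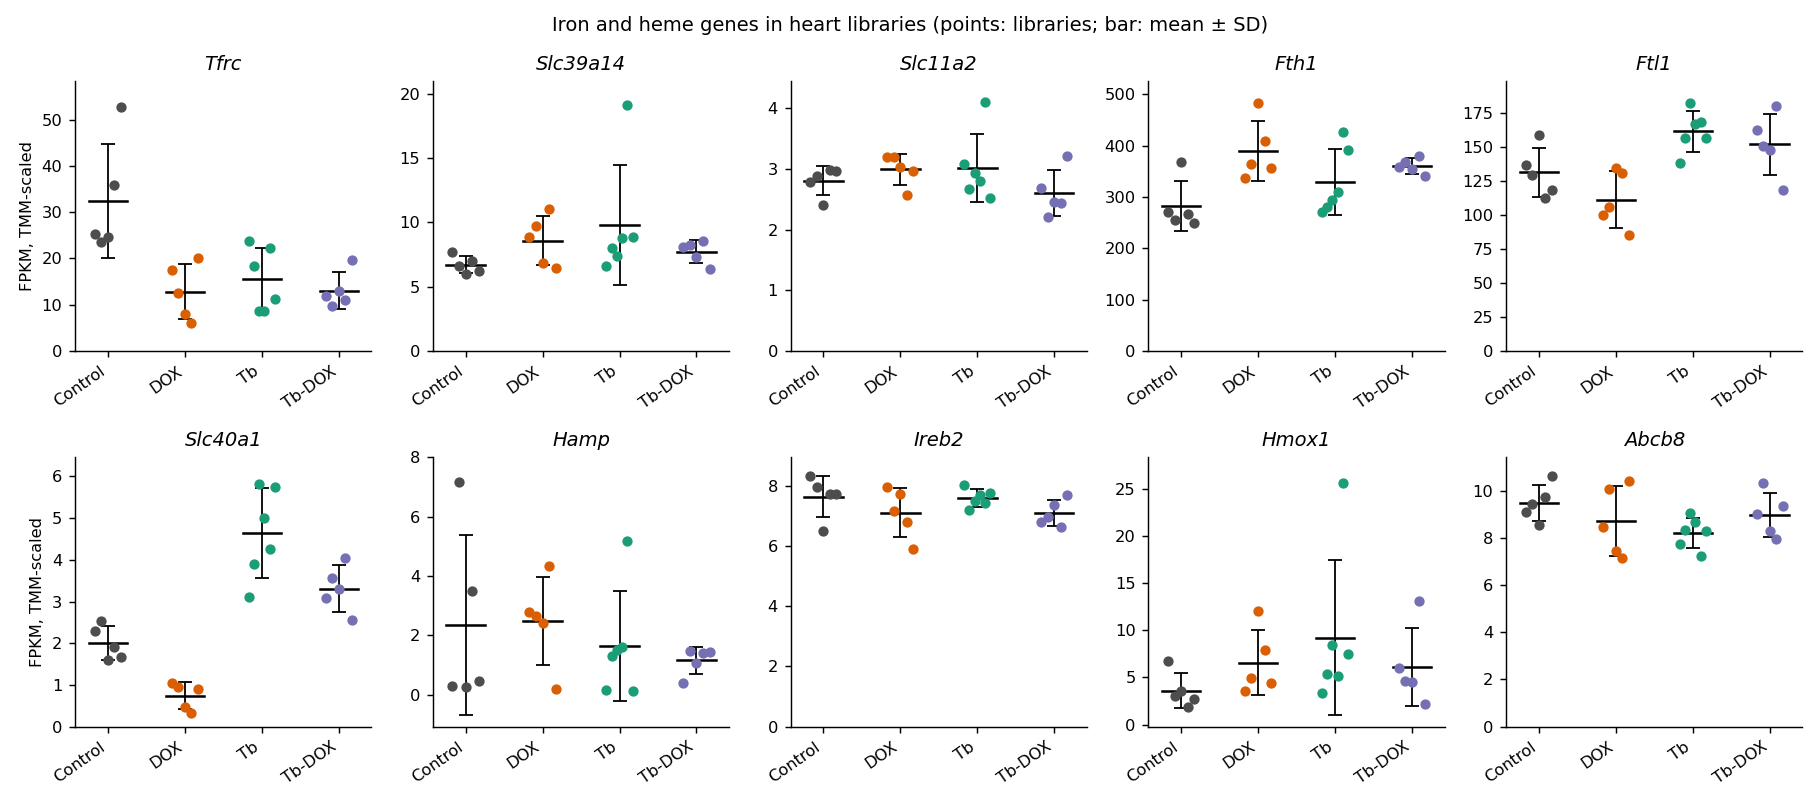
Level of each of the 10 genes (TMM-scaled FPKM, axes from 0 except where an SD bar reaches below it) in the 4 groups, with a point for each library and a bar for the mean ± SD. *Slc40a1* was between 0.313 and 1.05 in DOX libraries and between 3.12 and 5.83 in Tb libraries, and *Tfrc* was highest in Control.

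The ferroportin gene *Slc40a1* (ENSMUSG00000025993, chr1:45947228-45965683 on the minus strand in the GRCm39 coordinates of the table) encodes the only known iron exporter of mammalian cells and is abundant in macrophages that recycle red cells. Its level in the Control libraries, replicates 1 to 5, was 2.30, 2.53, 1.59, 1.92 and 1.66 FPKM. The DOX libraries gave 1.05, 0.948, 0.466, 0.313 and 0.910 FPKM. Every DOX library lay below every Control library. The fall was 2.70-fold (log2 fold change -1.43, SE 0.252, edgeR adjusted p = 0.000214).

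The lowest *Slc40a1* level among Tb libraries was 3.12 FPKM, the median of the 6 was 4.62 and the highest was 5.83. In Tb-DOX libraries 1 to 5 it was 3.08, 3.57, 3.30, 4.04 and 2.55 FPKM. The order of the groups was DOX, Control, Tb-DOX and Tb, and the ranges of the last pair overlapped, while those of Control and Tb-DOX lay just apart at 2.53 and 2.55 FPKM. Tumor-bearing hearts exceeded non-tumor-bearing ones 2.32-fold without DOX (log2 1.22, SE 0.232, edgeR adjusted p = 0.00150) and 4.47-fold with it (log2 2.16, SE 0.254, edgeR adjusted p = 6.78e-06), and neither pair of groups overlapped, as held for 6.18% and 14.5% of all genes. For Tb-DOX against Tb the log2 fold change was -0.49 (SE 0.226, edgeR unadjusted p = 0.0419, adjusted p = 0.223), which did not pass, though it did with voom quality weights. The difference between both DOX effects was 0.95 on the log2 scale (SE 0.335, edgeR adjusted p = 0.0734), so a weaker DOX effect under tumor was not shown. That difference passed without the DOX replicate 1 library (edgeR adjusted p = 0.0424) and in DESeq2.

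Markers of macrophages and of neutrophils differed between some of the same groups as *Slc40a1*. The summed level of macrophage markers, led by the complement gene *C1qa*, ranged from 66.8 to 81.8 FPKM in Control, 33.6 to 65.0 in DOX, 78.8 to 97.8 in Tb and 47.4 to 96.6 in Tb-DOX. Of the 12 markers tested, 1 rose and 6 fell between DOX and Control, 0 rose and 3 fell between Tb-DOX and Tb, 4 rose and 1 fell between Tb-DOX and DOX, and 0 passed between Tb and Control. All 9 neutrophil markers rose in both tumor comparisons in which *Slc40a1* rose. All-gene shares there were 6.28% (Tb against Control) and 17.5% (Tb-DOX against DOX). The neutrophil sums were 1.56 to 5.08 FPKM in Control and 834 to 7768 in Tb. They were 9.76 to 87.1 in DOX and 1259 to 5384 in Tb-DOX. Between DOX and Control, where *Slc40a1* fell, 5 of the 9 neutrophil markers rose and 0 fell, 55.6% beside 36.2% of all genes. In bulk tissue, fewer cells of a type and less RNA per cell cannot be told apart. As a description chosen after the values were seen, *Slc40a1* per 100 FPKM of summed macrophage markers was 1.95 to 3.34 in Control, 0.517 to 2.71 in DOX, 3.82 to 7.29 in Tb and 4.19 to 5.75 in Tb-DOX. On that scale Control and DOX overlapped, and Tb lay above Control and Tb-DOX above DOX. Neutrophil markers do not enter this scale, and the share of all genes that would lie apart on it was not counted. The part of macrophages and of neutrophils in the *Slc40a1* differences was not tested.

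*Tfrc* (ENSMUSG00000022797, chr16:32427738-32451612, plus strand, GRCm39) is the main route of iron into muscle and red cell precursors. Control libraries 1 to 5 had 25.3, 23.6, 24.6, 36.0 and 52.7 FPKM. DOX libraries had 17.6, 12.6, 7.92, 5.99 and 20.0 FPKM. Again all DOX libraries were below all Control libraries, with Control replicates 4 and 5 the highest of the series. The fall was 2.53-fold (log2 -1.34, SE 0.340, edgeR adjusted p = 0.00426), and leaving out any library kept the log2 value between -1.55 and -1.09.

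In Tb libraries *Tfrc* ran from 8.65 to 23.7 FPKM with a median of 14.8. The Tb-DOX libraries 1 to 5 had 11.8, 9.74, 13.0, 10.9 and 19.7 FPKM. These 2 groups overlapped each other and the DOX group. Tb was 2.09-fold below Control (log2 -1.07, SE 0.319, edgeR adjusted p = 0.0487), a call at the edge of the threshold that was lost on leaving out any of 15 of the 21 libraries, every Control library among them, with an adjusted p of up to 0.174 (without Control replicate 5). DOX under tumor gave a log2 fold change of -0.25 (SE 0.322, edgeR adjusted p = 0.715), and the difference between both DOX effects was 1.09 (SE 0.464, edgeR adjusted p = 0.125), which passed with voom quality weights alone among the alternatives.

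Red cell markers also fell with DOX. The erythroid list, led by the beta globin *Hbb-bs*, summed to 258 to 1006 FPKM in Control and 5.31 to 165 in DOX. In Tb it summed to 464 to 1049 FPKM and in Tb-DOX to 2.90 to 35.4. All 5 members tested fell with DOX in both tumor states, beside 36.2% of all genes called without tumor and 4.72% with it. The part of blood cells in the *Tfrc* differences was not tested.

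The other importers did not pass the edgeR test in any comparison over all 21 libraries. *Slc39a14*, which encodes the ZIP14 carrier of iron not bound to transferrin, was 6.72 ± 0.664 FPKM (SD, n = 5) in Control and 8.59 ± 1.93 (SD, n = 5) in DOX, with overlapping libraries (log2 0.35, SE 0.215, edgeR adjusted p = 0.206). Without the Tb replicate 5 library this rise passed (log2 0.36, edgeR adjusted p = 0.0283), as it did with voom quality weights. That library itself reached 19.1 FPKM, while the other Tb libraries lay between 6.64 and 8.83. Tb against Control gave a log2 fold change of 0.55 (edgeR adjusted p = 0.135), and 0.245 without that library. *Slc11a2*, the divalent metal transporter of the gut and of endosomes, kept to between 2.20 and 4.10 FPKM in all 21 libraries. Its log2 fold change between DOX and Control was 0.09 (SE 0.127, edgeR adjusted p = 0.595), and the sign of that small value turned under scaling by library totals.

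Ferritin transcripts were the most abundant of the 10. *Fth1* (ENSMUSG00000024661, chr19:9957962-9962462, plus strand, GRCm39), the chain that oxidizes iron for storage, had 271, 256, 368, 267 and 248 FPKM in Control libraries 1 to 5. In the DOX libraries it had 336, 365, 483, 409 and 356 FPKM. The Control replicate 3 library lay inside the DOX range and the other Control libraries below it. *Fth1* rose 1.38-fold with DOX (log2 0.47, SE 0.133, edgeR adjusted p = 0.00915). Scaling by library totals gave 0.33 (edgeR adjusted p = 0.102), a setting that moved the median of all genes to -0.14 from 0.00, so the rise depends on how libraries are scaled.

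Under tumor, *Fth1* ranged from 270 to 426 FPKM in Tb, with a median of 302. The Tb-DOX libraries lay within a narrow span, 340 to 379 FPKM. Both ranges overlapped (log2 0.13, SE 0.127, edgeR adjusted p = 0.611), as they did between Tb and Control (log2 0.22, edgeR adjusted p = 0.324).

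*Ftl1* (ENSMUSG00000050708, chr7:45107368-45109308, minus strand, GRCm39), the chain that helps the iron core form, had 137, 130, 159, 113 and 119 FPKM in Control libraries 1 to 5. The DOX libraries gave 99.8, 106, 135, 131 and 85.3 FPKM. The groups overlapped and no change was called (log2 -0.24, SE 0.128, edgeR adjusted p = 0.148). Tb-DOX libraries had 162, 151, 148, 181 and 119 FPKM, of which replicate 5 lay within the DOX range. *Ftl1* was 1.37-fold higher in Tb-DOX than in DOX (log2 0.45, SE 0.128, edgeR adjusted p = 0.0186), a call lost without DOX replicate 5 or without Tb-DOX replicate 4 (adjusted p of at most 0.0579). Of the 10 genes, *Slc40a1* and *Ftl1* passed between Tb-DOX and DOX, where 17.5% of all genes did.

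Since both chains are read in the same library, their ratio needs no scaling between libraries. The *Fth1* to *Ftl1* FPKM ratio in Control libraries 1 to 5 was 1.98, 1.97, 2.31, 2.37 and 2.09. DOX libraries had 3.37, 3.43, 3.59, 3.12 and 4.17. All DOX ratios were above all Control ratios. The ratio was 1.65-fold higher with DOX (log2 difference 0.72, two-sided exact permutation p = 0.00794, the smallest that 5 against 5 libraries allow, 0.0159 after Benjamini-Hochberg adjustment over 4 comparisons).

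In Tb libraries the ratio ran from 1.61 to 2.53 with a median of 1.90, and in Tb-DOX libraries from 2.10 to 2.86 with a median of 2.40. These groups overlapped and did not pass (log2 difference 0.25, two-sided exact permutation p = 0.119, adjusted 0.159), nor did Tb against Control (-0.09, exact permutation p = 0.489). Tb-DOX ratios lay below every DOX ratio (log2 difference -0.56, two-sided exact permutation p = 0.00794, adjusted 0.0159). Whether the DOX effect on the ratio differed between tumor states was not tested. The 3 pseudogenes of each chain with a ps symbol held at most 0.057% (*Fth1*) and 0.965% (*Ftl1*) of the parent's count in any library. How reads that fit both a parent and its pseudogenes were counted was not checked, so these shares cannot show whether the ratio was affected.

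**Figure D2:**
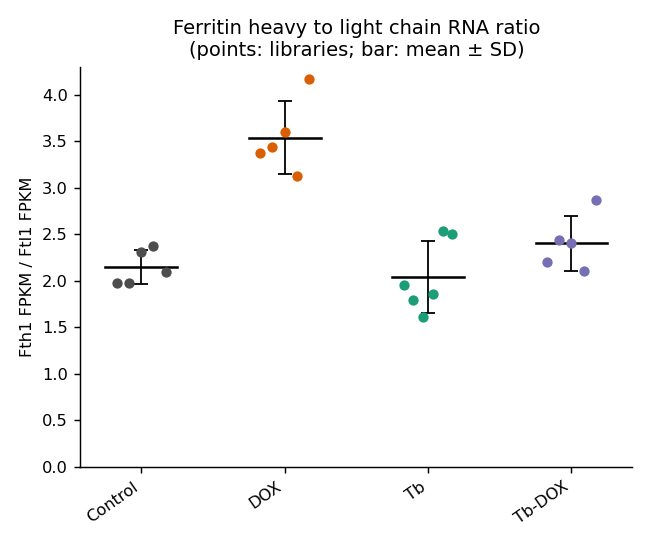
Ratio of *Fth1* to *Ftl1* FPKM (axis from 0) in each library of the 4 groups, with the mean ± SD. The DOX libraries sit between 3.12 and 4.17, above all libraries of the other groups, the highest of which is 2.86.

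Heme oxygenase 1 was variable. *Hmox1* (ENSMUSG00000005413, chr8:75820249-75827217, plus strand, GRCm39), which responds to heme and to oxidants, had 6.78, 3.04, 3.56, 1.85 and 2.76 FPKM in Control libraries 1 to 5. The DOX libraries gave 3.59, 4.92, 12.0, 7.92 and 4.45 FPKM. These groups overlapped (log2 0.87, SE 0.515, edgeR adjusted p = 0.194). In Tb the lowest level was 3.33 FPKM, the median 6.44 and the highest 25.6, the last in replicate 5.

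Tb against Control gave a log2 fold change of 1.35 for *Hmox1* (SE 0.497, edgeR adjusted p = 0.120), which was 0.73 without Tb replicate 5. Tb-DOX libraries ranged from 2.22 to 13.1 FPKM, and the log2 fold change from Tb was -0.59 (SE 0.480, edgeR adjusted p = 0.524), turning to 0.04 without Tb replicate 5. No comparison of *Hmox1* passed, and its SE was among the widest of the 10 genes.

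Hepcidin, made mainly by liver and also by heart muscle, lowers iron export. *Hamp* had very few reads, from 1 to 42 per library. Control libraries 1 to 5 held 2, 42, 2, 19 and 3 reads, and DOX libraries 17, 14, 15, 22 and 1. Tb libraries held from 1 to 35 reads, the most in replicate 5, and Tb-DOX libraries 3 to 10. Control, DOX and Tb libraries each ran from 1 or 2 reads to 22 or more, and Tb-DOX libraries were closer together. No comparison passed (DOX against Control log2 0.11, SE 0.804, edgeR adjusted p = 0.932), and the wide SE goes with both the few reads and the spread between libraries. Liver markers summed to at most 9.11 FPKM in any library. Atrial markers, led by the natriuretic peptide gene *Nppa*, summed to 106 to 388 FPKM in Control and to 445 to 852 in DOX. *Nppa* alone averaged 183 and 527 FPKM there, and *Myl7* 48.1 and 51.1. Of 6 atrial markers tested, 1 rose and 0 fell between these groups, 16.7% beside 36.2% of all genes. In Control, replicates 4 and 2 had the highest sums and the most *Hamp* reads. In DOX, replicate 4 was the highest of both. The lowest DOX sum, 445 in replicate 2, went with 14 *Hamp* reads, and 486 in replicate 5 with 1. In Tb the atrial markers summed to 105 to 323 FPKM, with 106 in replicate 5, which had the most *Hamp* reads of that group. In Tb-DOX they summed to 172 to 721 FPKM. Replicates 2, 4 and 5 of that group, at 703, 176 and 721 FPKM, each had 10 *Hamp* reads. The part of atrial tissue in these values was not tested.

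The remaining pair did not pass in any edgeR comparison. *Ireb2*, which encodes iron regulatory protein 2, the sensor that is degraded when iron is plentiful, stayed between 5.90 and 8.34 FPKM in all libraries (DOX against Control log2 -0.10, SE 0.084, edgeR adjusted p = 0.351), with a call for a fall under limma on log2(FPKM + 0.1) (-0.24), a setting without TMM scaling. *Abcb8* stayed between 7.16 and 10.6 FPKM (log2 -0.12, SE 0.107, edgeR adjusted p = 0.378). Over all comparisons their edgeR adjusted p was at least 0.254.

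**Figure D3:**
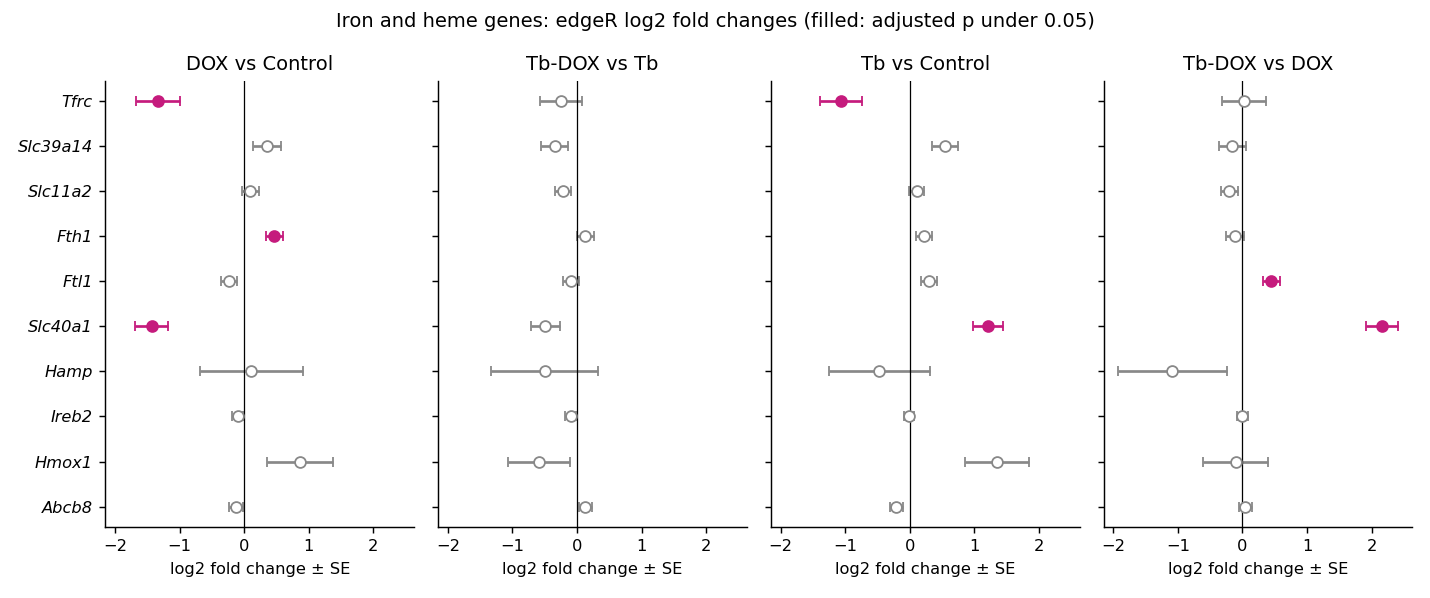
log2 fold change ± SE of the 10 genes from edgeR in 4 comparisons, with filled points for adjusted p under 0.05. *Slc40a1* was at -1.43, -0.49, 1.22 and 2.16 from left to right, and *Hamp* had the widest SE bars.

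For the tumor alone, 2 of the 10 passed between Tb and Control (*Slc40a1* up, *Tfrc* down), where 6.28% of all genes did. The DOX and tumor interaction gave 0 of 10, where 8.94% of all genes passed. Unadjusted p was under 0.05 for 4 of them in edgeR (*Slc40a1*, *Tfrc*, *Slc39a14* and *Hmox1*) beside 28.9% of all genes, and DESeq2 called 1, *Slc40a1*, beside 14.6%. The comparisons share groups, so their calls are not independent.

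The wider pathway was followed through 85 listed genes, of which 68 passed the filter. Between DOX and Control 11 of them rose and 14 fell, 36.8% of those tested beside 36.2% of all genes. The median log2 fold change of the 68 was -0.09, beside 0.00 for all genes. With tumor, 1 rose and 5 fell between Tb-DOX and Tb, 8.82% beside 4.72%, a count that was 3 without Tb replicate 2 or Tb replicate 3 and 2 without Tb-DOX replicate 2 or Tb-DOX replicate 5.

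Among 7 tested genes of iron uptake and reduction, 2 rose and 1 fell with DOX in hearts without tumor, 42.9% beside the 36.2% of all genes. *Steap3*, the reductase that turns transferrin iron to its ferrous form in endosomes, fell from 5.27 ± 1.05 FPKM (SD, n = 5) to 2.17 ± 0.487 (SD, n = 5; log2 -1.28, edgeR adjusted p = 4.76e-05). It fell with *Tfrc*, its partner in the transferrin cycle. *Steap4*, a related metalloreductase, rose from 9.70 ± 1.26 to 20.3 ± 5.12 FPKM (SD, n = 5 each; log2 1.07, edgeR adjusted p = 0.000163). *Scara5*, a ferritin receptor, rose by a log2 of 0.47 (edgeR adjusted p = 0.00522).

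With tumor, *Scara5* rose by a log2 of 0.46 from Tb to Tb-DOX (edgeR adjusted p = 0.0308) and *Steap3* changed by -0.69 (edgeR adjusted p = 0.0326). *Steap4* was 22.8 ± 5.60 FPKM (SD, n = 6) in Tb and 24.0 ± 4.66 (SD, n = 5) in Tb-DOX, both above its Control level. For *Steap3* the call was lost on leaving out any of 9 libraries, and for *Scara5* any of 5.

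Of 7 tested storage, handling and export genes, 1 rose (14.3% beside 36.2%): *Cp*, encoding ceruloplasmin, the ferroxidase that works with ferroportin, went from 7.64 ± 0.694 to 18.0 ± 4.97 FPKM (SD, n = 5 each; log2 1.23, edgeR adjusted p = 0.000295). It moved opposite to *Slc40a1*. Under tumor 0 of the 7 passed.

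Among 9 tested genes of the hepcidin control system, 2 rose and 2 fell, 44.4% beside 36.2%. Without DOX replicate 4, 1 rose and 1 fell, and without Tb replicate 5, 2 rose and 3 fell. *Hjv*, the hemojuvelin co-receptor for bone morphogenetic proteins, which is made in striated muscle as well as liver, fell from 58.0 ± 6.39 FPKM to 23.3 ± 6.74 (SD, n = 5 each; log2 -1.32, edgeR adjusted p = 3.82e-05). With tumor it was 42.0 ± 12.2 FPKM in Tb (SD, n = 6) and 25.1 ± 1.16 in Tb-DOX (SD, n = 5; log2 -0.74, edgeR adjusted p = 0.0225, lost without any of 5 libraries). The ligand gene *Bmp6* rose by 0.47 (edgeR adjusted p = 0.0288) and the transcription factor gene *Atoh8* by 0.72 (edgeR adjusted p = 0.0275), whereas the receptor gene *Acvr1* fell by 0.39 (edgeR adjusted p = 0.0189). Each of these 3 calls was lost on leaving out any of 3 or 4 libraries.

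Of 13 tested genes of heme synthesis, 1 rose and 6 fell with DOX, 53.8% beside 36.2%. *Alas2*, the erythroid form of the first enzyme, fell from 4.23 ± 2.56 to 1.05 ± 0.728 FPKM (SD, n = 5 each; log2 -2.03, edgeR adjusted p = 0.00304) and belongs to the erythroid markers too. The later enzymes *Alad* (log2 -0.87, edgeR adjusted p = 0.000566), *Cpox* (log2 -0.79, edgeR adjusted p = 0.00248) and *Uros* (log2 -0.71, edgeR adjusted p = 0.00984) fell as well. *Clpx*, the mitochondrial unfoldase that activates the first enzyme, was the gene that rose. In tumor-bearing hearts *Alas2* alone of the 13 passed (log2 -4.53, edgeR adjusted p = 0.000173), where the erythroid sums given above did not overlap either.

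Of 12 tested genes for heme transport and breakdown, 2 rose and 1 fell, 25% beside 36.2%. *Flvcr1*, first described as a heme exporter, rose by a log2 of 0.80 (edgeR adjusted p = 0.000504), and *Abcg2*, a pump that carries porphyrins, by 0.63 (edgeR adjusted p = 0.00296). *Blvrb*, a biliverdin reductase, fell by 0.71 (edgeR adjusted p = 0.0106). With tumor 0 of the 12 passed between Tb-DOX and Tb.

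Of 20 tested genes of mitochondrial iron and iron-sulfur clusters, 3 rose and 4 fell, 35% beside 36.2% of all genes. The mitochondrial iron importers moved in opposite directions: *Slc25a28* (mitoferrin 2), the widely expressed form, rose (log2 0.93, edgeR adjusted p = 5.54e-05) and *Slc25a37* (mitoferrin 1), the form of red cell precursors, fell (log2 -0.57, edgeR adjusted p = 0.000554). *Iscu*, the scaffold on which clusters are built, rose from 26.9 ± 1.96 to 44.1 ± 4.67 FPKM (SD, n = 5 each; log2 0.71, edgeR adjusted p = 4.60e-05). *Iba57*, a late assembly factor, fell by a log2 of 1.25 (edgeR adjusted p = 0.000372). In the tumor-bearing pair 2 of the 20 passed, *Slc25a37* (log2 -0.55, edgeR adjusted p = 0.00563) and *Iba57* (log2 -0.92, edgeR adjusted p = 0.0215, lost on leaving out any of 4 libraries), both downward.

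**Figure D4:**
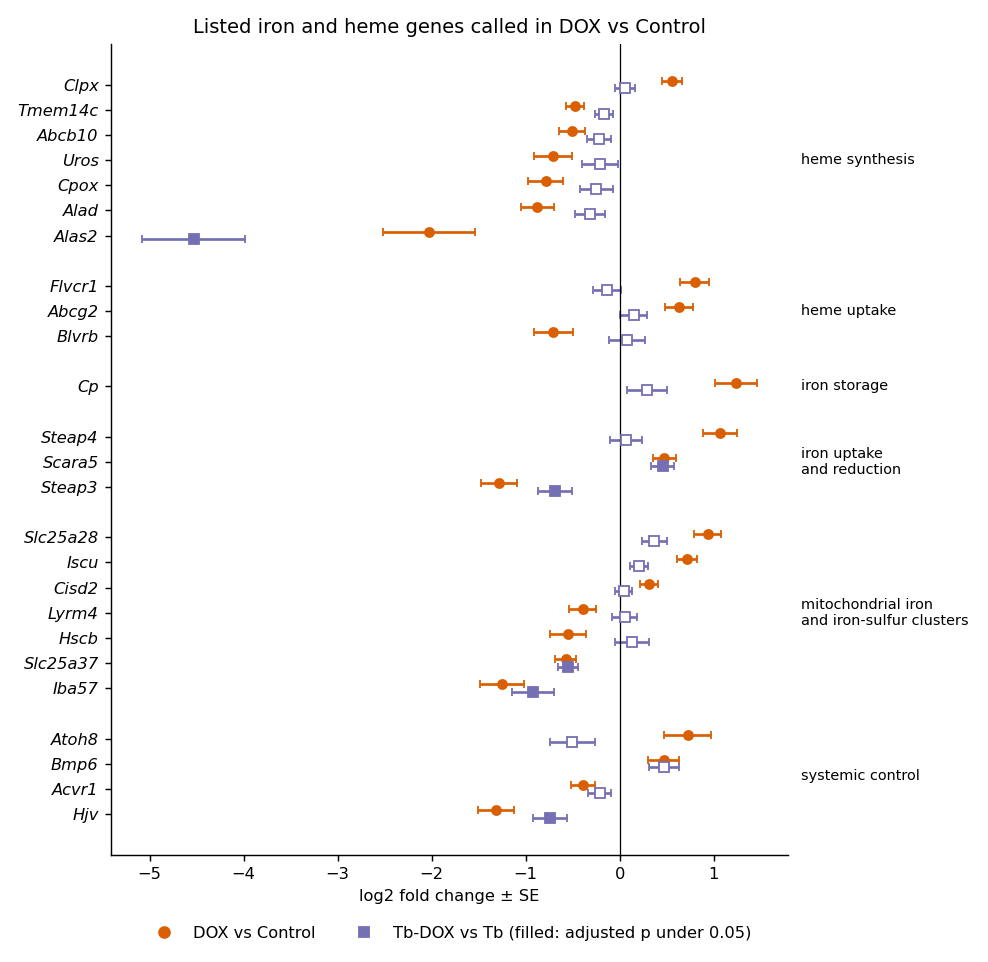
log2 fold change ± SE of the 25 listed iron and heme genes called between DOX and Control (circles), with the same gene between Tb-DOX and Tb (squares, filled where adjusted p is under 0.05), grouped by list. *Alas2* was at -2.03 and -4.53, and *Slc25a37* at -0.57 and -0.55.

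Where the DOX effect was tested for a difference between tumor states, 6 of the 68 listed genes passed, 8.82% beside 8.94% of all genes, each with a more negative DOX effect under tumor: *Clpx*, *Alas2*, *Flvcr1*, *Steap4*, *Iscu* and *Atoh8*, named after their values were seen. For *Steap4* the interaction was -0.9997 on the log2 scale (edgeR adjusted p = 0.0223) and for *Flvcr1* -0.93 (edgeR adjusted p = 0.0162). These 2 calls held on leaving out each library, and the other 4 did not. The count was 2 without Control replicate 2, 4 or 5, and 3 without DOX replicate 4 or without Tb-DOX replicate 1, 2 or 5.

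Tumor was compared over the same lists. Between Tb and Control 7 of the 68 rose and 1 fell, 11.8% beside 6.28% of all genes. As named after their values were seen, the hemoglobin scavenger *Hp* went from 0.404 ± 0.410 FPKM (SD, n = 5) to 42.0 ± 30.4 (SD, n = 6), and *Lcn2*, which binds bacterial iron carriers, and *Ltf*, lactoferrin, rose with it. *Fbxl5*, which targets the *Ireb2* product for degradation, rose by a log2 of 0.71 (edgeR adjusted p = 0.00268), and *Trf* (transferrin), *Flvcr1* and *Steap4* also rose, *Trf* not without Control replicate 4 or Tb replicate 6 and *Flvcr1* not without Control replicate 3. *Bmp6* fell by 0.85 (edgeR adjusted p = 0.00110). Between Tb-DOX and DOX 7 of the 68 rose and 8 fell, 22.1% beside 17.5% of all genes, and 8 in all passed without DOX replicate 3, Tb-DOX replicate 1 or Tb-DOX replicate 4. *Ltf* is also a neutrophil marker, and neutrophil markers led by *S100a9* summed to 1.56 to 5.08 FPKM in Control and to 834 to 7768 in Tb, whose part in these values was not tested.

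Partner lists place the 10 genes beside pathways that they share. NRF2, a transcription factor activated by oxidants, drives *Hmox1*, *Fth1* and *Ftl1* along with detoxifying enzymes. The list also holds *Nfe2l2*, which encodes NRF2, and its inhibitor gene *Keap1*. Of its 9 genes tested, 4 rose and 0 fell with DOX in hearts without tumor, 44.4% beside 36.2% of all genes: *Gclc* (log2 1.38, edgeR adjusted p = 5.75e-05), *Txnrd1* (log2 0.98, edgeR adjusted p = 0.00708), *Nqo1* (log2 0.91, edgeR adjusted p = 1.72e-05) and *Gclm* (log2 0.67, edgeR adjusted p = 0.0184, lost without DOX replicate 3). Under tumor, 0 of the 9 passed between Tb-DOX and Tb. Between Tb and Control 2 of the 9 rose and 0 fell, 22.2% beside 6.28% of all genes, with a list median log2 of 0.63 beside -0.01 over all genes: *G6pdx* (log2 2.41, edgeR adjusted p = 4.09e-05) and *Gsr* (log2 0.65, edgeR adjusted p = 0.0272, lost on leaving out any of 5 libraries). The count was 4 without DOX replicate 3, 3 without DOX replicate 4 and 1 without Tb replicate 5 or Control replicate 3. All 9 neutrophil markers tested also rose between Tb and Control, and their part in these values was not tested. The 4 genes that rose with DOX had interaction adjusted p under 0.05 in edgeR (44.4% beside 8.94% of all genes), that of *Gclm* lost without any of 14 libraries. *Nqo1*, a quinone reductase, was 27.2 ± 3.17 FPKM in Control, 51.2 ± 8.17 in DOX, 33.9 ± 4.34 in Tb and 35.6 ± 4.75 in Tb-DOX (SD, n = 5, 5, 6 and 5).

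Of 10 ferroptosis genes tested, *Tfrc* among them, 1 rose and 2 fell between DOX and Control, 30.0% beside 36.2% of all genes. *Acsl4*, which makes the lipids that oxidize in ferroptosis, rose by a log2 of 0.66 (edgeR adjusted p = 0.0228, lost without DOX replicate 3), and *Dhodh*, a mitochondrial enzyme that guards against it, fell by 0.51 (edgeR adjusted p = 0.0108). Between Tb-DOX and Tb 0 of the 10 passed.

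Of 7 genes of the interleukin 6 and STAT3 route that induces hepcidin, 3 rose with DOX in hearts without tumor, 42.9% beside 36.2% of all genes: *Socs3* (log2 2.04, edgeR adjusted p = 0.0307), *Osmr* (log2 1.13, edgeR adjusted p = 0.00497) and *Stat3* (log2 0.58, edgeR adjusted p = 0.0375). Without DOX replicate 4 this count was 1, and the calls of *Socs3* and *Stat3* were each lost without any of 5 or 6 libraries. Between Tb and Control 6 of the 7 rose, and 5 without Tb replicate 5, beside 6.28% of all genes, while *Hamp* itself had a log2 fold change of -0.47 (SE 0.781, edgeR adjusted p = 0.762). All 9 neutrophil markers tested rose in that comparison too, and 5 of the 9 rose between DOX and Control, with sums of 9.76 to 87.1 FPKM in DOX beside 1.56 to 5.08 in Control, and their part in these values was not tested. Between Tb-DOX and Tb 0 of the 7 passed.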

How the data were processed

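The study enriched mRNA with oligo(dT) beads and sequenced paired ends. Per the labels' processing notes, the authors used cutadapt, FastQC, HISAT2, HTSeq 0.6.1 and DESeq2 1.34.0 with the GRCm39 build; whether counting used strand is not given in the sources used here. The deposited table holds read counts per gene and, made from them by the authors, FPKM; recomputing FPKM from counts and exon lengths matched 100.0% of values within 0.0051. Columns were matched to samples by title, and the authors' chromosome, length and strand columns were used for annotation.

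Counts were tested with edgeR 4.0.16 (R 4.3.3; TMM scaling, quasi-likelihood F test, two-sided, 1 coefficient per group, all 21 libraries in 1 fit). TMM factors ran from 0.8806 to 1.142. Reads per library ran from 13521200 to 18601445. The fit was also run on simulated counts, whose outcome is not reported here. Alternatives were median-ratio (RLE) scaling, library totals, other FPKM filters, DESeq2 1.42.0, limma 3.58.1 on log2(FPKM + 0.1) and log2(FPKM + 1), voom quality weights, only the groups compared, a replicate block and leaving out each library. No 2 replicates agreed within sampling noise (chi-square per degree of freedom of at least 5.597).

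The members and lists were chosen with earlier results of these data known. All 10 members are named throughout; of each listed pathway, up to 4 genes with the largest called log2 fold changes in either DOX comparison, and others where a count of 5 or fewer is spelled out or as stated. Hairpins were read from GENCODE M21 transcripts (GRCm38), whose coordinates equal those of the table for only 2.756% of 52073 shared genes.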

Additional observations from a re-analysis of the deposited data

Results flagged for a closer look

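Dixon's test for a lone extreme library was applied to 44 sets of values, the 10 genes and the ferritin ratio in each group, and chance alone marks about 1 in 20. The *Fth1* level in Control was marked for its highest library, replicate 3, at 368 FPKM, while the other Control libraries lay between 248 and 271. The *Slc39a14* level in Tb was marked for replicate 5, at 19.1 FPKM, beside 6.64 to 8.83 in the rest. *Hamp* was marked for its lowest library in DOX, replicate 5 at 0.194 FPKM, and in Tb-DOX, replicate 1 at 0.411 FPKM, which stand for 1 and 3 reads.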

How the results depend on the processing

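The falls of *Slc40a1* and *Tfrc* between DOX and Control and the *Slc40a1* differences with tumor kept their direction and their call under every alternative in which they were tested and without each library. The *Fth1* rise was lost under library totals (0.33) and both limma settings. Library totals moved the median of all genes to -0.14 between DOX and Control and to 0.18 between Tb-DOX and DOX. *Hamp* had 1 to 42 reads and a wide spread between libraries, and what limits its comparisons was not tested. Genes that fell below a filter were not tested under it, and where other values below moved, the cause was not tested.

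Counts of the 10 genes called moved as follows. Between Tb-DOX and Tb the count was 2 with voom weights (*Fth1* and *Slc40a1*; 18.0% of all genes). For the interaction it was 1 with DESeq2 (*Slc40a1*; 14.6% of all genes) and 1 with voom weights (*Tfrc*; 11.8%). Calls were also gained for *Slc39a14* (DOX against Control) and *Ftl1* (Tb against Control) with voom weights and for *Ireb2* (DOX against Control) with limma on log2(FPKM + 0.1). Between Tb and Control the count was 1 with RLE scaling (6.26% of all genes) and 1 with limma on log2(FPKM + 0.1) (4.39%). With only the groups compared it was 1 (4.42%). It was 0 with the stricter filter, a mean of 5 FPKM (5.89%). Under that filter *Slc40a1*, *Slc11a2* and *Hamp* were not tested, and the *Tfrc* call was lost. Between Tb-DOX and DOX the count was 1 with that filter (16.7% of all genes), again with *Slc40a1* not tested. It was 1 when a change of 1 or more on the log2 scale was also asked. Shares of all genes at that size are not given here. Pathway counts between DOX and Control were 16 with that filter (44.0% of all genes) and 6 with that size. Only listed genes that averaged 5 FPKM or more were tested with that filter. Pathway counts between Tb-DOX and Tb were 3 with that filter (8.49% of all genes), 10 with DESeq2 (7.68%) and 17 with voom weights (18.0%). They were 2 with only the groups compared (2.51%) and 1 with that size. Pathway interaction counts were 2 with that filter (9.72% of all genes) and 2 with that size. Between Tb and Control the pathway counts were 14 with voom weights (10.4% of all genes) and 4 with that size. Between Tb-DOX and DOX the pathway count was 4 with that size.

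Leaving out each library gave 3 to 4 of the 10 genes called between DOX and Control, 0 to 0 between Tb-DOX and Tb, 0 to 1 for the interaction (1 without DOX replicate 1), 1 to 2 between Tb and Control and 1 to 2 between Tb-DOX and DOX. Pathway counts were 21 to 27, 2 to 8, 2 to 9, 7 to 9 and 8 to 20 in the same order, the last being 8 without DOX replicate 3, Tb-DOX replicate 1 or Tb-DOX replicate 4. The ferritin ratio difference between DOX and Control stayed between 0.659 and 0.763.

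Signs turned only in comparisons in which the gene was not called. *Slc11a2* between DOX and Control was -0.041 with library totals and -0.045 and -0.033 with limma (pseudocounts 0.1 and 1), and between Tb and Control -0.017 with voom weights. *Hamp* was -0.0068 between DOX and Control with library totals and 0.19 between Tb-DOX and Tb with limma (0.1). *Tfrc* with voom weights was 0.027 between Tb-DOX and Tb and -0.083 between Tb-DOX and DOX. *Ireb2* for the interaction was -0.013 with RLE scaling, -0.013 with no filter and -0.015 with DESeq2. *Ireb2* between Tb and Control was 0.039 with library totals, 0.0011 with no filter, 0.035 and 0.032 with limma and 0.016 with only the groups compared. *Ireb2* between Tb-DOX and DOX was 0.18 with library totals, 0.056 with the stricter filter, and 0.19 and 0.17 with limma. *Hmox1* in that comparison was 0.094 with library totals, 0.00049 with limma (1) and 0.020 with voom weights. *Fth1* was 0.069 with library totals and 0.085 and 0.085 with limma, *Slc39a14* was 0.049 with library totals and 0.055 and 0.048 with limma, and *Abcb8* was -0.0053 with voom weights there.

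Without each library in turn, *Hamp* ran from -0.186 to 1.17 between DOX and Control, -0.747 to 0.282 between Tb-DOX and Tb, -1.68 to 0.163 for the interaction and -1.25 to 0.591 between Tb and Control. *Hmox1* ran from -1.08 to 0.0368 between Tb-DOX and Tb and from -0.592 to 0.226 between Tb-DOX and DOX. *Ireb2* ran from -0.0692 to 0.0553 for the interaction, -0.0585 to 0.0242 between Tb and Control and -0.0771 to 0.0389 between Tb-DOX and DOX. *Tfrc* ran from -0.172 to 0.230 and *Abcb8* from -0.0269 to 0.112 between Tb-DOX and DOX.

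Samples that share a replicate number did not deviate together: over 30 pairs the correlation of their deviations ran from -0.234 to 0.21, and 3 were above 0.1. Fitted with the replicate number as a block, the pathway interaction count was 2 (3.62% of all genes) and *Hamp* between Tb and Control was 0.065. With that block, 3 of the 10 genes were called between DOX and Control, beside 34.9% of all genes.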
